A study of Mus musculus with 12 samples.

Results

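Cxcl1, Cxcl2, Cxcl3 and Cxcl5 encode secreted CXC chemokines that attract neutrophils. They were chosen by symbol, as the chemokines of this kind that stromal cells make when exposed to LPS, and they are 4 of the 23329 genes listed in the count tables. They were measured by strand-specific, poly(A)-selected RNA sequencing of primary stromal cells from the small intestine of C57BL6/J mice, which the labels call intestinal myofibroblasts. The cells came from embryos at E14.5 or from adult mice. Cultures received lipopolysaccharide (LPS, a cell wall component of Gram-negative bacteria, here from Escherichia coli O111:B4) at a stated 10 µg/µl for 6 h, or PBS as the vehicle. Stage and treatment gave 4 groups of 3 libraries each, and the labels give no genetic change in any of them.

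The adult cultures came from 3 mice and each embryonic culture from pooled embryos. All were used after a few passages, so the cells are cultured stroma and not fresh tissue. The gene counts of the 12 libraries ranged from 18850224 to 32672370. Levels are given as CPM, the counts scaled to a common library total after TMM normalization. A floor of 3 counts per library, below which a gene was treated as not detected, lay between 0.0896 and 0.144 CPM and covers counting error only.

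The summed CPM of 8 stromal markers ran from 20770 to 39290 over the libraries, led by Acta2 (smooth muscle actin), Col1a1, Tagln and Vim. Pdgfra, also among the 8, was far less abundant in embryonic stroma. Its embryonic means were 3.49 (PBS) and 4.18 CPM (LPS), against adult means of 45.88 and 75.67 CPM. Embryonic minus adult, it was at -3.72 log2 units for PBS (edgeR adjusted p = 0.00686) and -4.18 for LPS (edgeR adjusted p = 0.00561). This was without the replicate block, where the other 7 were not called between the stages. With the block, 3 of the 8 were called lower in embryonic stroma and 1 higher, for either treatment. Macrophage, endothelial and mesothelial markers were found in every library, at levels that differed widely between libraries. A list of 10 macrophage markers, all above 3 counts in every embryonic library, summed to 134, 754.8 and 1550 CPM in embryonic LPS libraries 1, 2 and 3 and to 164, 339.9 and 2102 CPM in the embryonic PBS libraries of the same numbers. In adult LPS libraries, where 8 to 10 of the 10 were above 3 counts, it summed to 168.6, 14.71 and 41.02 CPM, and in adult PBS libraries to 153.6, 16.98 and 41.39 CPM. No stromal or macrophage marker was called with LPS without the replicate block. With the block, Cx3cr1 was called lower (-2.82, edgeR adjusted p = 0.00155) and Fcgr1 higher (2.31, edgeR adjusted p = 0.00784) in embryonic stroma, both named after their values were seen, so the macrophage sum holds genes that moved in opposite directions. A list of 6 endothelial markers reached 1717 CPM in adult LPS library 2 and 1788 CPM in adult PBS library 2, against 14.09 to 378 CPM in the other adult libraries and 8.36 to 34.64 CPM in the embryonic libraries. Epithelial markers summed to 19.52 to 116.8 CPM and mesothelial markers to 108.1 to 1041 CPM. The epithelial sum came mostly from the keratins Krt8, Krt18 and Krt19. The group means of Epcam, Cdh1 and Vil1 were at most 0.309, 0.604 and 0.183 CPM. By flow cytometry the paper found no CD326, the protein of Epcam, on its stromal cultures. Of 6 neutrophil markers, at most 1 was above 3 counts in any library, and the list summed to 0.0681 to 5.56 CPM. In bulk cultures such as these, fewer cells of a type and less RNA per cell cannot be told apart.

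**Figure D1:**
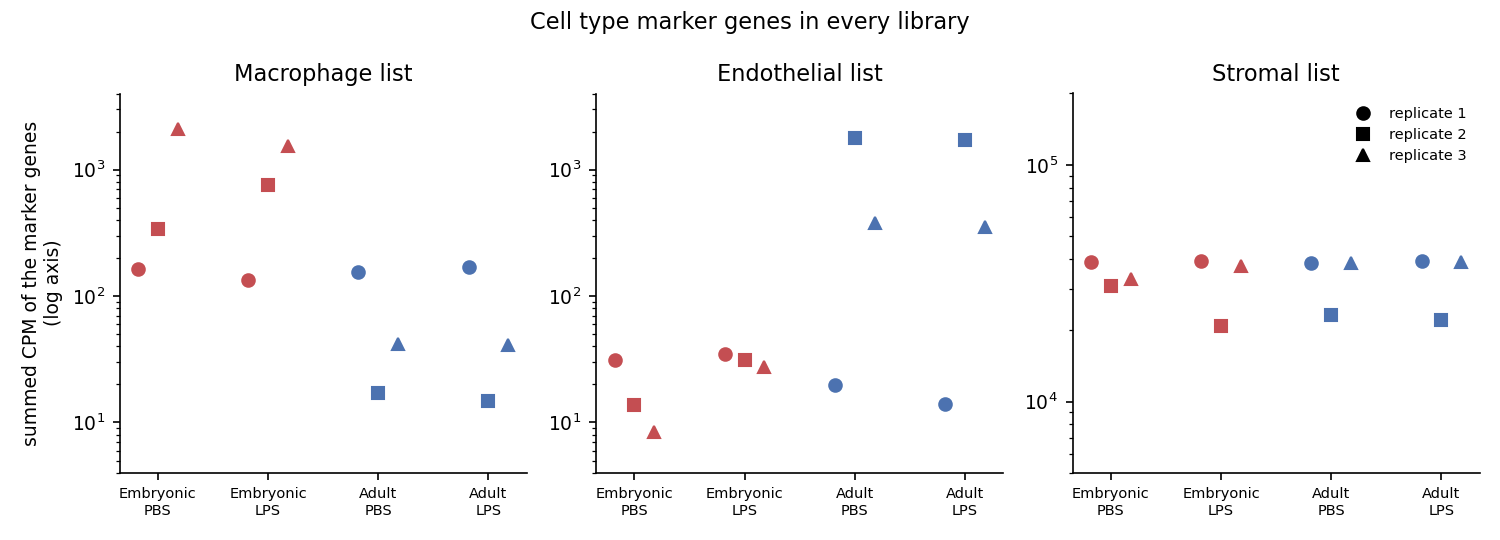
Summed CPM (log axis) of the macrophage, endothelial and stromal marker lists in each library, by group, with the shape of a point giving the replicate number. The macrophage sum was lowest in adult library 2 and highest in embryonic library 3 with either treatment, and the endothelial sum was highest in adult library 2.

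These chemokines carry a glutamate-leucine-arginine (ELR) stretch just before their paired cysteines. Through it they bind the receptor CXCR2, which neutrophils carry, and draw those cells out of the blood and along a gradient into tissue. In resting cells their genes are nearly silent. Bacterial products sensed by Toll-like receptors, and the cytokines IL-1 and TNF, switch them on within hours through NF-kB, and IL-17 prolongs the life of their mRNAs. Stromal cells of the gut wall are a known source of them beside macrophages and epithelium.

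The members lie in a single gene cluster on mouse chromosome 5 (GRCm38.p6, all on the plus strand), which spans 146.6 kb from the start of Cxcl5 to the end of Cxcl2. Cxcl5 occupies chr5:90759298-90761625, Cxcl3 chr5:90786101-90788093, Cxcl1 chr5:90891245-90893121 and Cxcl2 chr5:90903899-90905938. Cxcl1 and Cxcl2 are direct neighbours with 10.8 kb between them. Over their coding sequences Cxcl2 and Cxcl3 are the closest pair, with 89.8% identical bases, against 78.7% for Cxcl1 and Cxcl2, 75.6% for Cxcl1 and Cxcl3, and 63% to 68.4% for Cxcl5 and each of the others. Of the 75-base windows of the transcripts, the length of a read, 69 of 1035 in Cxcl2 and 69 of 942 in Cxcl3 lay within 1 mismatch of the other gene, and none in Cxcl1. In Cxcl5, 11 of 1501 windows were also found in other genes (4930470B04Rik and Ilf2). Since only uniquely mapped reads with at most 1 mismatch were counted, reads from these windows can be missing from, or misplaced between, Cxcl2 and Cxcl3, and their levels carry that uncertainty, as does that of Cxcl5 for its few shared windows.

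Promoter sequence was taken from RefSeq (GRCm38.p6) for 3 of the 4 members, Cxcl1, Cxcl2 and Cxcl3, and is shown because these genes moved together with LPS. Each line below gives the 130 bases before the start of transcription on the plus strand, at chr5:90891115-90891244 for Cxcl1, chr5:90903769-90903898 for Cxcl2 and chr5:90785971-90786100 for Cxcl3. Capitals mark matches on either strand to the NF-kB-like letters GGNNNTTCC and, in Cxcl3, to TATAAA.
Cxcl1: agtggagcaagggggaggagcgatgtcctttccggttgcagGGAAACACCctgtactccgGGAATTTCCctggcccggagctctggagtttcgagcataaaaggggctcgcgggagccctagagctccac
Cxcl2: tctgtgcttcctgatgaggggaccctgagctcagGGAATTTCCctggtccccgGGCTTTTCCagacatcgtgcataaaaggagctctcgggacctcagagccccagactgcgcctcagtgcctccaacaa
Cxcl3: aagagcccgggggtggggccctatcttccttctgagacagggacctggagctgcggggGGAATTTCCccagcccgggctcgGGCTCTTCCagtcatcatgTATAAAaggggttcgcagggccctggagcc

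The same 9 letters, GGAATTTCC, stood in all 3 promoters, from -70 to -62 in Cxcl1, from -96 to -88 in Cxcl2 and from -72 to -64 in Cxcl3, counted back from the base before the start. Each also held another match to the looser letters, GGAAACACC (minus strand, -89 to -81) in Cxcl1, GGCTTTTCC (-77 to -69) in Cxcl2 and GGCTCTTCC (-49 to -41) in Cxcl3. Of 32851 mouse promoters of 300 bases, 18.5% held GGNNNTTCC on either strand and 0.317% held GGAATTTCC, the latter searched for after the matches were seen. None of the 3 members held the AP-1-like letters TGANTCA (7.81% of promoters), the C/EBP-like letters TTGCNNAA (10.8%) or the interferon-response-like letters GAAANNGAA (8.56%). TATAAA, searched for on the strand of the gene, was in 8.32% of promoters and stood at -30 to -25 in Cxcl3. Among the interferon-inducible CXC chemokines, the promoters of Cxcl9 and Cxcl10 also held 2 NF-kB-like matches each and both held GAAANNGAA, at -175 to -167 and at -213 to -205. Both held TGANTCA as well, at 32 to 38 after the start in Cxcl9 and at -74 to -68 in Cxcl10. Cxcl9 also held TATAAA, at -195 to -190.

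Without LPS all 4 genes were close to silent at either stage. Of the 24 values in the 6 PBS libraries, 14 were at or under 3 counts and 6 were at 0, and none reached 1 CPM. With LPS every value was well above that level, the lowest being 111 counts of Cxcl3. All 4 genes were therefore kept for testing by their LPS libraries alone, since no gene was above the required 0.5 CPM in all 3 libraries of a PBS group.

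Cxcl1, also known as KC, is an attractant made by fibroblasts, epithelium and macrophages. In adult LPS libraries it had the highest level of the 4 per transcript length, 895.6 ± 233.8 CPM per kb (SD, n = 3). In adult PBS libraries 1, 2 and 3 it was at 0.806, 0.481 and 0.852 CPM, and in adult LPS libraries at 1111, 728.3 and 721.5 CPM. In embryonic PBS libraries it was at 0.181, 0.122 and 0.0896 CPM, and in embryonic LPS libraries at 477.9, 200.2 and 523 CPM. No 2 of the 4 groups overlapped, and the order was adult LPS, embryonic LPS, adult PBS, embryonic PBS. By CPM, without regard to length, it ranked 110 to 168 among all listed genes in the adult LPS libraries and 288 to 949 in the embryonic LPS libraries, against ranks of 12240 to 14530 with PBS. Summed over the libraries of a group, the level was 1172 times higher with LPS in adult stroma (95% counting interval 904.5 to 1548) and 3025 times higher in embryonic stroma (1769 to 5683). These intervals and those below hold counting error only and leave out the spread between libraries, so they do not compare the stages.

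Cxcl2, which macrophages and mast cells also release as an early signal, had the opposite order of the stages. It was at 301.1, 297.7 and 909.6 CPM in the embryonic LPS libraries and at 0.120, 0.457 and 0.717 CPM in the embryonic PBS libraries. In the adult LPS libraries it was at 187.5, 125.5 and 150.7 CPM and in the adult PBS libraries at 0.0366, 0 and 0.102 CPM, which is 4 counts in all. The groups did not overlap, although the lowest embryonic PBS value and the highest adult PBS value were only 1 count apart. Embryonic LPS library 3 stood above the other 2 of its group, which were nearly equal. The ratio of summed levels was 1130 in embryonic stroma (838.5 to 1561) and 2988 in adult stroma (1167 to 10970), the wide interval coming from the 4 PBS counts.

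Cxcl3, the closest relative of Cxcl2, had the lowest level of the 4 per transcript length in adult LPS libraries, 13.1 ± 9.82 CPM per kb (SD, n = 3), and 0 counts in all 3 adult PBS libraries. In adult LPS libraries it was at 23.36, 3.41 and 13.17 CPM, so that the rise was at least 112-fold against a floor of 3 counts per library. In embryonic stroma it went from 0.120, 0.0609 and 0.0299 CPM with PBS to 26.16, 6.66 and 46.68 CPM with LPS, a ratio of 365.7 (177.2 to 910.7). Library 2 was the lowest of the LPS libraries at both stages, and the embryonic and adult LPS ranges overlapped.

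Cxcl5, known chiefly as an epithelial and stromal attractant that works over longer times than Cxcl1 and Cxcl2, had the lowest level of the 4 per transcript length in embryonic LPS libraries, 4.69 ± 2.09 CPM per kb (SD, n = 3). It was at 7.08, 4.28 and 10.83 CPM in embryonic LPS libraries, and a single count was seen over the 3 embryonic PBS libraries, a ratio of 722.7 with an interval of 129.2 to 28590. In adult stroma it was at 20.08, 68.86 and 21.29 CPM with LPS and at 0.0366, 0.625 and 0.0681 CPM with PBS, a ratio of 187.7 (115.4 to 328.8). Adult library 2 was the highest of its group with either treatment. That culture also had the highest endothelial marker sum and the lowest adult macrophage sum, and their part in the Cxcl5 level was not tested. All 6 LPS values lay above all 6 PBS values.

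**Figure D2:**
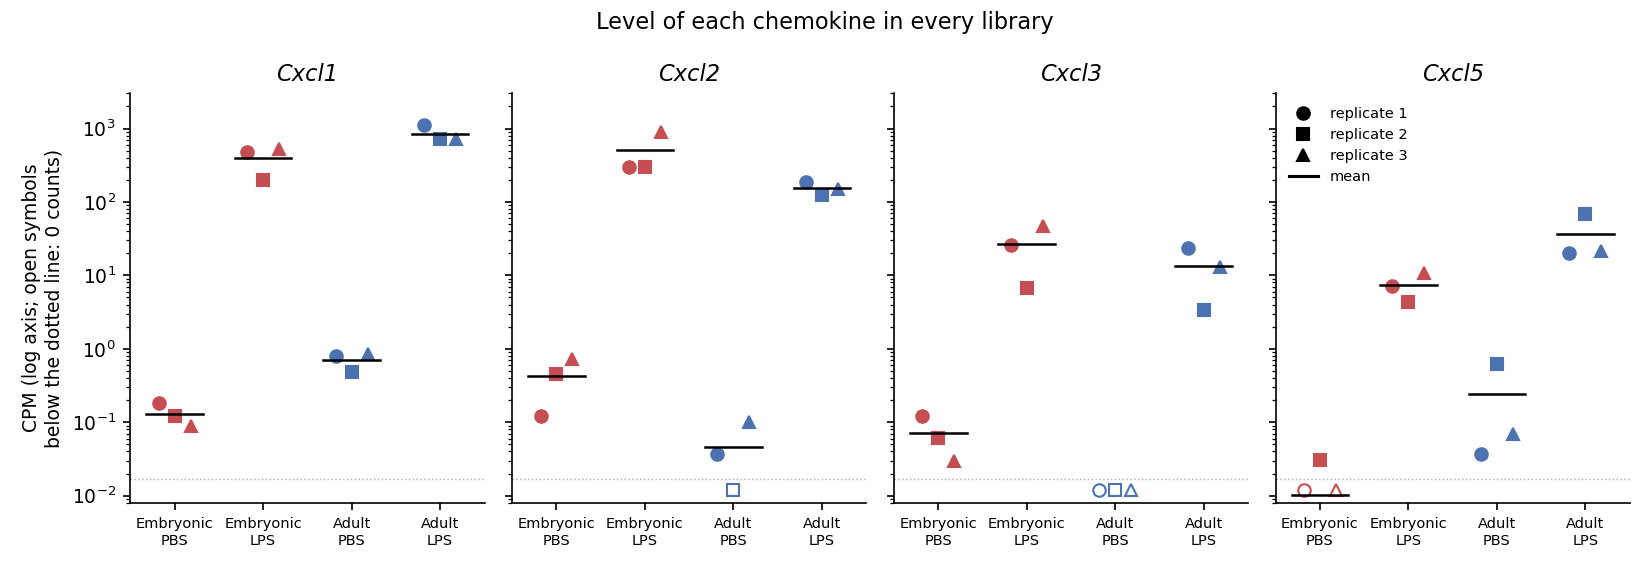
Level of each member in every library, in CPM on a log axis, by group, with replicate numbers as shapes and group means as bars. Open symbols below the dotted line are libraries with 0 counts, and every LPS library sits above every PBS library of its gene, with Cxcl1 higher and Cxcl2 lower in adult than in embryonic LPS libraries.

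All 4 genes rose with LPS at both stages by the quasi-likelihood test of edgeR, adjusted after Benjamini and Hochberg over 13038 genes, and called at an adjusted p under 0.05 and a log2 fold change of at least 2. In embryonic stroma 1.87% of tested genes were called higher, and in adult stroma 0.422%. Since the members were kept by their LPS libraries, the count of 4 of 4 describes them and is no independent support. In embryonic stroma the log2 fold change was 11.53 for Cxcl1 (SE 0.555, adjusted p = 1.35e-05), 10.17 for Cxcl2 (SE 0.763, adjusted p = 0.000276), 9.01 for Cxcl5 (SE 1.24, adjusted p = 0.00511) and 8.47 for Cxcl3 (SE 1.17, adjusted p = 0.00928), by the same edgeR test. In adult stroma it was 10.20 for Cxcl1 (SE 0.507, adjusted p = 1.89e-05), 11.44 for Cxcl2 (SE 0.889, adjusted p = 0.000515) and 7.35 for Cxcl5 (SE 0.969, adjusted p = 0.0101), again by edgeR. For adult Cxcl3 the edgeR adjusted p was 0.0232, and its fitted value of 11.59 (SE 1.65) rests on the 0 counts with PBS and is no bound. Ranked by fitted log2 fold change among all tested genes, the members took places 6, 17, 29 and 33 in embryonic stroma (Cxcl1, Cxcl2, Cxcl5, Cxcl3) and places 2, 5 and 24 in adult stroma (Cxcl2, Cxcl1, Cxcl5). Adult Cxcl3 took place 1 by its fitted value and place 28 by its lower bound of 6.81. Their median was 9.59 in embryonic and 10.82 in adult stroma, or 8.77 there with Cxcl3 set to its lower bound, beside medians of -0.00027 and -0.0075 over all tested genes.

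The rise was also taken within each replicate number. On the log2 CPM scale with a prior count of 2, LPS minus PBS within the same replicate number was 10.95, 10.10 and 11.77 for Cxcl1 in embryonic cultures 1, 2 and 3 and 10.30, 10.30 and 9.62 in adult cultures. For Cxcl2 it was 10.70, 9.17 and 10.19 in embryonic and 10.74, 10.35 and 9.79 in adult cultures. Cxcl3 varied most, from 5.79 to 9.03 in embryonic and from 5.17 to 8.32 in adult cultures, with culture 2 the lowest at each stage. Cxcl5 lay between 5.57 and 7.51 in embryonic and between 6.58 and 7.52 in adult cultures. For each of the 4 genes the embryonic and adult ranges of this difference overlapped. The prior count makes these differences smaller than the fitted ones for genes near 0.

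**Figure D3:**
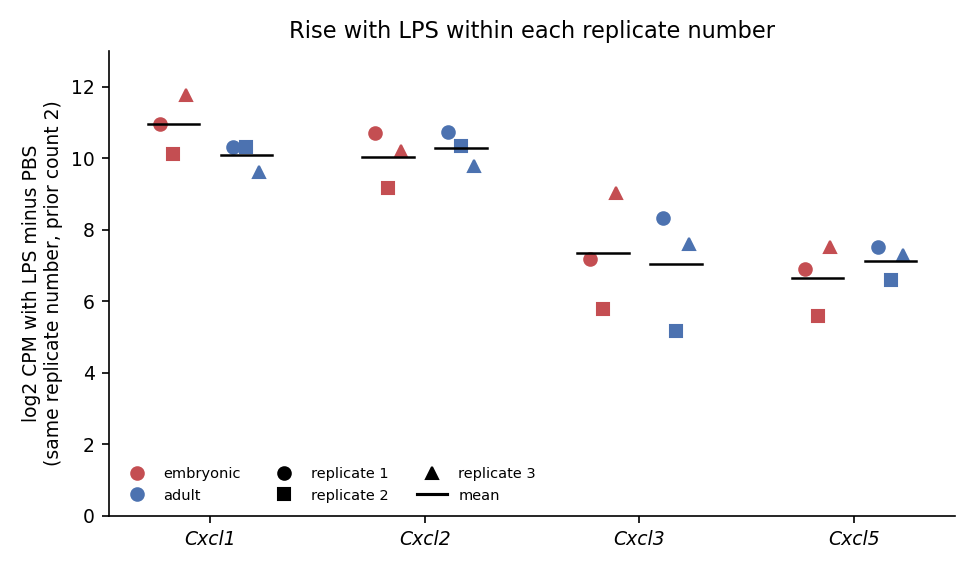
Difference in log2 CPM (prior count 2) between the LPS and PBS libraries of the same replicate number, for each member, with embryonic cultures in red, adult cultures in blue and means as bars. All 24 differences are above 5 log2 units, and those of Cxcl3 are spread most widely.

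With the replicate number as a block the 8 rises had adjusted p values of at most 0.000403 by edgeR's test, and the same 4 genes were called at each stage, where 3.02% of all tested genes were called higher in embryonic stroma and 1.6% in adult stroma. Without the block, some calls rested on single libraries or on the spread shared by all 12. With only the libraries of the stage in the fit, Cxcl1 alone of the members was called in embryonic stroma, where 0.0317% of genes were, with edgeR adjusted p values of 0.0729 to 0.0882 for the others, and adult Cxcl3 was not called (0.0685) where 0.989% of genes were. At an adjusted p under 0.01, 0.115% of genes were called higher in adult stroma, Cxcl1 and Cxcl2 among them. The call of adult Cxcl3 was lost without adult LPS library 1 or 3 or without any 1 of the adult PBS libraries (adjusted p 0.0591 to 0.135 by edgeR's test), and that of adult Cxcl5 without adult PBS library 1 or 3 (adjusted p 0.06 and 0.0961). The call of embryonic Cxcl3 was lost without embryonic PBS library 1 (edgeR adjusted p 0.0596), and without both embryonic libraries numbered 3, which had the most macrophage marker counts (0.0676). Cxcl1 and Cxcl2 kept their calls at both stages with each single library left out, and also without both embryonic libraries numbered 3 or both adult libraries numbered 2. The rise of Cxcl1 was 11.07 log2 units or more in embryonic stroma and 10.10 or more in adult stroma in the alternatives other than single libraries left out.

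Whether the rise differed between the stages was tested by the interaction of stage and LPS. No member passed, and 0% of all tested genes did (adjusted p of 1 for each member by edgeR's test). The rise in embryonic stroma minus that in adult stroma was 1.34 log2 units for Cxcl1 (SE 0.63, unadjusted p = 0.0591 from edgeR's test), -1.27 for Cxcl2 (SE 1.21), -3.12 for Cxcl3 (SE 2.69, resting on the adult 0 counts) and 1.66 for Cxcl5 (SE 1.71). With the replicate block 0.844% of genes passed, again without a member, and the edgeR adjusted p was 0.345 for Cxcl1, 0.699 for Cxcl2, 0.685 for Cxcl3 and 0.737 for Cxcl5. The standard errors without the block were above 1 log2 unit for Cxcl2, Cxcl3 and Cxcl5. With it they were 0.41 for Cxcl1, 0.761 for Cxcl2, 1.76 for Cxcl3 and 1.06 for Cxcl5. A difference of 1 log2 unit was thus within 1 standard error for Cxcl3 and Cxcl5 in either fit. Even the 1.34 log2 units of Cxcl1 were not called, so neither fit could resolve 1 log2 unit for any member after adjustment. The interaction of Cxcl5 turned from 1.66 to -0.32 without adult PBS library 2, the library in which Cxcl5 was highest without LPS.

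The levels at the 2 stages were compared within each treatment. With PBS the embryonic and adult ranges did not overlap for Cxcl1 and Cxcl2, as for 24.3% of all tested genes. They did not overlap for Cxcl3 and Cxcl5 either, but the nearest libraries held 1 against 0 counts of Cxcl3 and 1 count each of Cxcl5, under the floor, so no order of the stages can be read for these. Cxcl1 was lower in embryonic than in adult stroma by 2.43 log2 units (SE 0.531, adjusted p = 0.035 by edgeR's test), the only member called among the 4.08% of genes called. At an adjusted p under 0.01 no member was called, where 0.782% of genes were. This call was lost without any 1 of the 6 PBS libraries or without adult LPS library 3 (adjusted p 0.0521 to 0.127). Cxcl2 was at 2.97, embryonic minus adult (SE 1.05), and Cxcl5 at -3.97 (SE 1.58), with edgeR adjusted p values of 0.143 and 0.194, and that of Cxcl3 was 0.458. The PBS libraries held 7 counts of Cxcl3 in embryonic and 0 in adult stroma, and 1 and 16 counts of Cxcl5.

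With LPS the ranges did not overlap for Cxcl1, Cxcl2 and Cxcl5, as for 25.1% of all tested genes, and overlapped for Cxcl3. Embryonic stroma was at -1.09 log2 units against adult stroma for Cxcl1 (SE 0.337), at 1.70 for Cxcl2 (SE 0.512), at -2.32 for Cxcl5 (SE 0.725) and at 0.99 for Cxcl3 (SE 0.783). By edgeR's test, which called 5.31% of genes here, none of the 4 passed, with adjusted p values of 0.0896, 0.0826, 0.0929 and 0.525 in that order. DESeq2 called Cxcl1, Cxcl2 and Cxcl5, with adjusted p values of 0.0441, 0.0245 and 0.0373, among 13.1% of all genes, and with PBS it called the same 3 members among 11.9%. The likelihood ratio test called 10.4% of all genes with LPS, Cxcl1 and Cxcl2 among them, and 9.03% with PBS, again with those 3 members. With the replicate number as a block over both stages, where 8.12% of genes were called with LPS and 6.83% with PBS, Cxcl1 was called with LPS (-1.17, edgeR adjusted p = 0.0258) and with PBS (-2.41, edgeR adjusted p = 0.0125), and no other member was. The same number in embryonic and adult cultures marks no shared animal.

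The make-up of the chemokine mRNA after LPS is given as a description, without a test. For this the levels were divided by transcript length (953 bases for Cxcl1, 1109 for Cxcl2, 1016 for Cxcl3 and 1575 for Cxcl5) and each gene was given as a share of the sum of the 4. In adult LPS libraries Cxcl1 made up 83.35% ± 1.48 (SD, n = 3; 82.34% to 85.06%) and Cxcl2 13.12% ± 1.44 (12.24% to 14.78%). In embryonic LPS libraries Cxcl1 made up 48.03% ± 12.7 (38.6% to 62.43%) and Cxcl2 48.84% ± 13.1 (33.8% to 57.69%). The ranges of the stages did not overlap for either gene. Cxcl3 made up 1.15% ± 0.695 in adult and 2.59% ± 1.08 in embryonic LPS libraries, with overlapping ranges, and Cxcl5 2.38% ± 2.06 (0.930% to 4.73%) and 0.533% ± 0.0431 (0.484% to 0.559%), which did not overlap.

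The sum itself did not separate the stages. Per kilobase of transcript it was 1071 ± 258.9 CPM (919.4 to 1370) in adult LPS libraries and 904.3 ± 475.2 CPM (487.7 to 1422) in embryonic LPS libraries (n = 3 each), so the adult range lay inside the embryonic one. Both were far above the PBS libraries, where the sum was 0.944 ± 0.0736 CPM per kb in adult and 0.602 ± 0.177 CPM per kb in embryonic stroma.

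The ratio of Cxcl2 to Cxcl1 per length was 0.145, 0.148 and 0.180 in adult LPS libraries 1, 2 and 3 and 0.542, 1.28 and 1.495 in embryonic LPS libraries. The lowest embryonic ratio was thus above the highest adult one. Within embryonic stroma the ratio followed the order of the macrophage marker sum over the 3 LPS libraries (134, 754.8 and 1550 CPM). In the adult LPS libraries it did not (168.6, 14.71 and 41.02 CPM). Embryonic LPS library 1 had a lower macrophage sum than adult LPS library 1 and a higher ratio. The part of the macrophages in the ratio was not tested. In the PBS libraries the ratio was 0.573, 3.22 and 6.88 in embryonic and 0.0391, 0 and 0.103 in adult stroma, from few counts, also without overlap. With 3 libraries against 3, an exact two-sided permutation test cannot go below p = 0.1, so none was run on these shares.

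**Figure D4:**
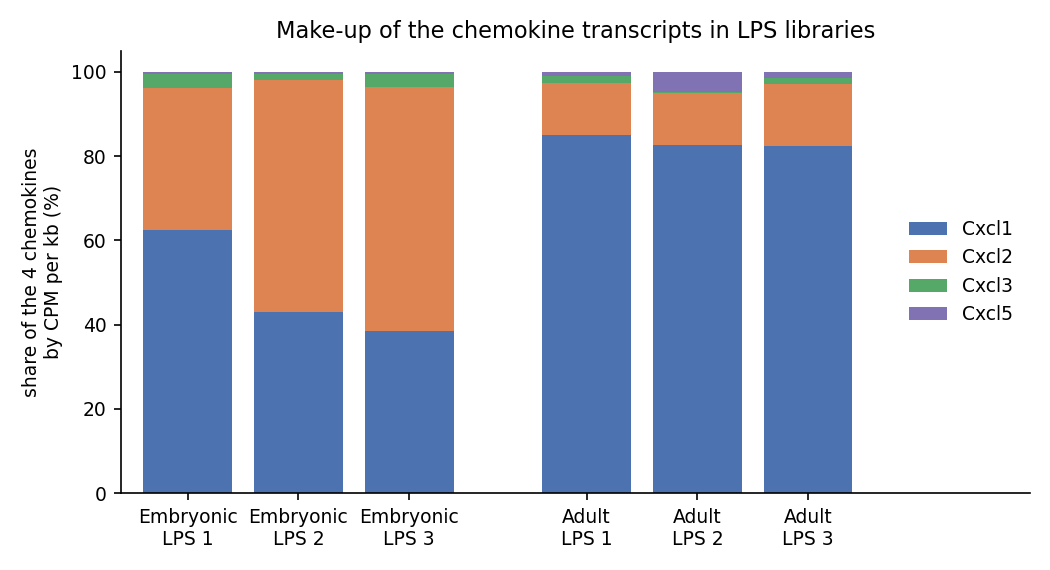
Share of each member in the sum of the 4, by CPM per kb of transcript, in each LPS library. Cxcl1 takes 82.34% or more in the adult libraries and 38.6% to 62.43% in the embryonic ones, where Cxcl2 takes most of the rest.

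Within the cluster, the members are interrupted by other chemokine genes. Ppbp and Pf4, which encode platelet chemokines and lie 9.2 kb and 13.1 kb from the start of Cxcl5, were not called at either stage, with or without the block. Ppbp had a log2 fold change of 0.80 (SE 1.13) in embryonic and 2.48 in adult stroma, and Pf4 of 0.16 (SE 1.09) and 0.23, with edgeR adjusted p values of 0.999 or 1. With the replicate block Ppbp was at 0.84 in embryonic stroma (SE 0.166, edgeR adjusted p = 0.0194), under the fold threshold, and at 2.59 in adult stroma (SE 0.589, edgeR adjusted p = 0.0528), and Pf4 at 0.22 and 0.28 (0.557 and 0.801). In embryonic PBS libraries Ppbp was already at 10.44 ± 13.1 CPM and Pf4 at 6.57 ± 6.54 CPM (SD, n = 3), levels that no member reached without LPS. Cxcl15, an epithelial chemokine of the lung that also carries the ELR stretch, had at most 1 count in any group and was not tested. The LPS-responsive genes thus stood at 0, 26.8, 131.9 and 144.6 kb from the start of Cxcl5, with 3 genes that were not called or not tested among them.

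**Figure D5:**
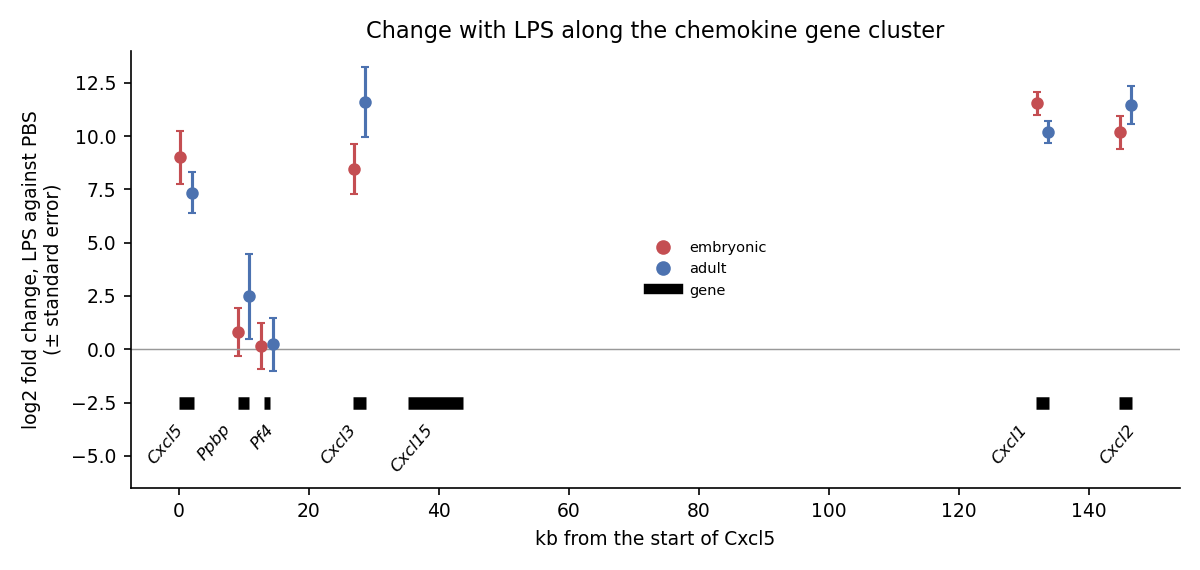
Log2 fold change with LPS (± standard error, edgeR) of the tested genes of the chemokine cluster against their distance in kb from the start of Cxcl5, with embryonic values in red, adult values in blue and the extent of each gene as a black bar. Cxcl5, Cxcl3, Cxcl1 and Cxcl2 lie above 7 at both stages, Ppbp and Pf4 below 3, and Cxcl15 was not tested.

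Of 11 other CXC chemokine genes, 8 were tested. Cxcl9, Cxcl10 and Cxcl11, ligands of CXCR3 that attract T cells and NK cells, were called higher in embryonic stroma, and Cxcl10 alone in adult stroma. With the replicate block these 3 and Cxcl16, a membrane-bound chemokine and scavenger receptor, were called at both stages. The RefSeq record matched to Cxcl11 is a non-coding one, so its counts are read as RNA only and not as a ligand made. Cxcl12, the homeostatic ligand of CXCR4, had a log2 fold change of -0.05 in embryonic stroma (SE 0.554, edgeR adjusted p = 0.999). Cxcl14, an epithelial and stromal chemokine, was not called at either stage, and Cxcl13, which guides B cells, and Cxcl17, a mucosal chemokine, were not tested. The list median was 1.63 in embryonic and 2.79 in adult stroma, or 2.47 there with Cxcl9 and Cxcl11 set to their lower bounds.

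Cxcl10 was called in the interaction with the block, where no member was, at 3.93 log2 units (SE 0.291, edgeR adjusted p = 0.00119; 3.99 and adjusted p = 1 without the block). With LPS, Cxcl10 was at 2268 ± 2211 CPM in embryonic and 114.9 ± 17.5 CPM in adult stroma (SD, n = 3), and Cxcl9 at 95.88 ± 111.5 and 0.923 ± 0.274 CPM. By edgeR the stages differed with LPS by 4.30 log2 units for Cxcl10 (adjusted p = 0.0102), against a size of at most 2.32 for the 4 members, none of them called. Ppbp, which lies in the cluster of the members, was also called higher in embryonic stroma. It differed by 6.26 log2 units with LPS and 7.94 with PBS (edgeR adjusted p 0.0401 and 0.0363).

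The receptors of the ELR chemokines were at or near the floor in these cultures. Cxcr1 had 0 counts in every library, which allows up to 3 counts in each. Cxcr2 had at most 4 counts in any group, with group means of 0 to 0.0488 CPM. Ackr1, an atypical receptor on venules that binds these chemokines without signalling, was highest in adult LPS libraries, at 0.731 ± 0.765 CPM (SD, n = 3). None of the 3 was tested.

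Neutrophil recruitment also needs growth factors and adhesion molecules. A list of 13 genes was looked at, of which 11 were tested. It holds such genes and other cytokines, and also acute phase, complement and antimicrobial genes. In embryonic stroma 6 were called higher and in adult stroma 3, where 1.87% and 0.422% of all tested genes were. The list medians were 4.98 and 3.33 log2 units. With the replicate block 11 and 10 were called, where 3.02% and 1.6% of all tested genes were. In the interaction 0 of the 11 were called without the block and 2 with it, where 0% and 0.844% of all tested genes were. Between the stages, without the block, 5 were called lower in embryonic stroma with PBS and 1 with LPS, and 0 higher. There 4.08% and 5.31% of all tested genes were called in either direction. Vcam1, a vascular and stromal adhesion molecule, rose at both stages, by 4.40 log2 units in embryonic (SE 0.579, edgeR adjusted p = 0.00391) and 3.69 in adult stroma (SE 0.559, edgeR adjusted p = 0.0178). Icam1, which neutrophil integrins bind, rose by 4.41 in embryonic stroma (SE 0.633, edgeR adjusted p = 0.00603) and was at 3.04 in adult stroma (SE 0.594, edgeR adjusted p = 0.0584; 0.00363 with the block).

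Lif, a cytokine of the IL-6 family, was called with the block only, at 2.49 log2 units in embryonic and 2.79 in adult stroma (edgeR adjusted p 0.00159 and 0.00195). Selp, the P-selectin of endothelium and platelets on which leukocytes roll, was also called with the block only, at 5.57 and 3.17 (edgeR adjusted p 0.00231 and 0.00266). Its adult LPS values ranged from 46.79 to 1571 CPM, and the endothelial marker sum in those libraries ranged from 14.09 to 1717 CPM. The part of endothelial cells in it was not tested.

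The genes through which stroma senses LPS, IL-1, TNF and IL-17 had smaller changes by median than the chemokines. Of 10 tested, 2 were called higher in embryonic stroma, Cd14 and Myd88, and none in adult stroma, and with the block Cd14 alone was called at each stage, Myd88 being under the fold threshold (1.82). Cd14 was also called in the interaction with the block (2.08, SE 0.288, edgeR adjusted p = 0.0191). The list medians were 0.46 log2 units in embryonic and 0.26 in adult stroma. Cd14, the co-receptor that hands LPS to TLR4, was at 272.6 ± 286.1 CPM in embryonic and 15.22 ± 4.61 CPM in adult LPS libraries (SD, n = 3), and macrophages also carry it. Il1r1, the signalling IL-1 receptor, was lower in embryonic than in adult stroma with PBS, at -1.99 log2 units (SE 0.473, edgeR adjusted p = 0.0466). Tnfrsf1a, the TNF receptor, and Il1rap, the IL-1 receptor accessory chain, were not called with LPS at either stage.

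A list of 12 genes chosen as inducible through NF-kB, with parts of the pathway and other factors, was tested. In embryonic stroma 9 were called higher and in adult stroma 6 (9 and 9 with the block). The shares over all tested genes were 1.87% and 0.422% (3.02% and 1.6% with the block). The list medians were 2.80 and 2.17 log2 units. Rela, Zfp36 and Cebpb, named after their values were seen, were not called with LPS at either stage in either fit. Nfkbia, the inhibitor that is resynthesized after each NF-kB pulse, rose by 4.27 in embryonic (SE 0.443, edgeR adjusted p = 0.00162) and 3.33 in adult stroma (SE 0.424, edgeR adjusted p = 0.00965). Nfkb1 and Nfkb2, which encode precursors of NF-kB subunits, rose by 2.395 and 2.55 in embryonic and by 2.19 and 2.15 in adult stroma. Tnfaip3, the deubiquitinase A20 that ends the signal, rose by 3.27 in embryonic stroma and was at 3.08 in adult stroma (edgeR adjusted p = 0.052; 0.0135 with the block). None of these 12 genes was called between the stages with either treatment, and none in the interaction.

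Across the 12 libraries the members followed each other and a small set of other genes closely. Pearson's r of log2 CPM (prior count 2) between members ran from 0.878 for Cxcl3 and Cxcl5 to 0.971 for Cxcl2 and Cxcl3. All genes that respond to LPS share the step between PBS and LPS libraries, so these values are a description only. The tested genes most like Cxcl1 were Ccl7, a monocyte attractant (r = 0.989), Csf2, which encodes GM-CSF (0.989), and Nfkbie, an NF-kB inhibitor (0.980). Ccl7 was highest in adult LPS libraries, at 465.9 ± 85.3 CPM, and at 279.1 ± 104.9 CPM in embryonic LPS libraries, the same order as Cxcl1. Those most like Cxcl2 were Ccl5, a T cell and monocyte attractant (0.978), Nfkb1 (0.977) and Ankrd33b (0.976). Ccl5 was at 342.1 ± 357.5 CPM in embryonic and 60.29 ± 29.2 CPM in adult LPS libraries, the order of Cxcl2. Cxcl3 was most like Nfkb2 (0.978), Ccl5 (0.975) and Daam1, a formin (0.971), and Cxcl5 most like F830016B08Rik (0.976), Ccl7 (0.970) and Icam1 (0.967).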

How the data were processed

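The data are 12 strand-specific, single-end libraries. The authors trimmed the reads, mapped them with STAR to the mouse genome (mm10 in the submitters' processing notes, GRCm38.p6 in the methods), kept unique reads with at most 1 mismatch and deposited raw counts per gene, without normalization. Counts on the strand of the gene were used (the opposite strand held 1.14% to 1.98% of the stranded gene counts). Groups came from the sample labels.

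Genes above 0.5 CPM in all libraries of at least 1 group were kept (13038 of 23329) and TMM-scaled. The test was edgeR's quasi-likelihood test (edgeR 4.0.16, R 4.3.3) over all 12 libraries, with Benjamini-Hochberg adjustment. A standard error is the log2 fold change divided by the square root of F. DESeq2 1.42.0 was an alternative. Figures used matplotlib 3.10.9. Same-numbered LPS and PBS libraries of a stage deviated together (r = 0.605 to 0.844 across genes), so they were treated as pairs in the block, although the labels do not say that they share a culture. P-values measure the spread between libraries of the same group, estimated for each gene over all 4 groups together and moderated across genes. With the block, those for LPS against PBS and for the interaction measure the spread of the differences within pairs. Replicates differed by more than sampling noise (chi-square per gene 33.7 to 306).

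Older symbols were mapped (Darc for Ackr1, Emr1 for Adgre1), and Ly6g was not analysed here. Transcripts came from GENCODE M21. The members, lists and tests were chosen with earlier results of these data known, and the named genes are the members, the 3 genes most correlated with each, all other CXC chemokines and ELR receptors, and the 4 tested genes of highest mean CPM in each other list. Other names, such as Myd88, were chosen after their values were seen. The scripts were tested on simulated data.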

Additional observations from a re-analysis of the deposited data

Results flagged for a closer look

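The deposited tables also give counts on the strand opposite each gene, which no comparison above used. With LPS, every library held more of these counts than any PBS library of its stage for Cxcl1 (217 counts over the embryonic and 792 over the adult LPS libraries), for Cxcl2 (303 embryonic, 128 adult), for embryonic Cxcl3 (8) and for adult Cxcl5 (11), whereas the PBS libraries held 0 or 1 in each stage. They made up 0.162% to 1.44% of a gene's stranded counts in those LPS libraries, beside 1.14% to 1.98% over all genes of the 12 libraries. Whether they are transcripts of the opposite strand was not tested.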

How the results depend on the processing

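The direction of all 8 rises with LPS held in every alternative that was run. Over all results and alternatives, 577 values were labelled the same, 26 weaker, 10 stronger, 21 moved and 1 reversed. For a single gene, the same means an unchanged direction and side of the threshold. Counts of called members and shares have no such threshold, and a count of 4 that became 3 was labelled the same. The counts of called members that moved were as follows. For embryonic against adult stroma with LPS, 0 became 1 with the replicate block, 2 with the likelihood ratio test and 3 with DESeq2, which called 8.12%, 10.4% and 13.1% of all genes there. With PBS, 1 became 3 with DESeq2 (11.9% of all genes) and the likelihood ratio test (9.03%), and 0 at an FDR under 0.01, with both embryonic libraries numbered 3 left out, or with both adult libraries numbered 2 left out. The last 2 settings were chosen after seeing the data. With LPS against PBS, 4 became 1 in embryonic stroma when only the libraries of the stage were fitted, and 2 in adult stroma at an FDR under 0.01. The fits of 1 stage called 0.0317% of genes higher in embryonic and 0.989% in adult stroma. With all 12 libraries in the fit these shares were 1.87% and 0.422%. The reason was not tested.

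At an FDR under 0.01 adult Cxcl3 (11.59) and Cxcl5 (7.35) were no longer called. With only the libraries of the stage, embryonic Cxcl2 (10.16), Cxcl3 (8.47) and Cxcl5 (9.02) and adult Cxcl3 (11.5) were no longer called. Embryonic Cxcl3 was at 7.42 without both embryonic libraries numbered 3, and adult Cxcl3 at 12.07 without both adult libraries numbered 2, neither called. Leaving out 1 library at a time gave 10.89 to 12.03 for adult Cxcl3, 6.49 to 9.33 for adult Cxcl5, 7.78 to 9.05 for embryonic Cxcl3 and -0.32 to 3.37 for the Cxcl5 interaction, the negative value without adult PBS library 2. The called members then numbered 2 to 4 for adult LPS and 0 to 1 for the stages with PBS. By coding length instead of transcript length, the adult share of Cxcl1 was 81.68% and the embryonic share of Cxcl5 0.607%.

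The replicate block changed no other call of a member. Between stages, same-numbered cultures did not deviate together (r = -0.304 to 0.0108), so the block over both stages marks no pairing there. Depth limits the PBS values above all, with 14 of 24 at or under 3 counts. Folds against them are uncertain by more than the intervals given, which hold counting error only and leave out the spread between libraries. The causes of the changes between settings were not tested.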
